A study of Mus musculus with 8 samples.

Results

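Serpins are a family of proteins named for the serine protease inhibitors among them. In the mouse liver data described here, the family was taken as every gene whose symbol is Serpin, a letter from a to i and a number. A further symbol of the family was left out by the rule and is not analysed here. The rule gave 67 genes of the 55487 in the count tables. It used the symbols alone and no measured value. By clade, which is the letter in the symbol, 28 belonged to clade A, 28 to clade B, 3 to clade E, 2 each to clades F and I, and 1 each to clades C, D, G and H, and 7 of the 67 were pseudogenes.

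Liver RNA was sequenced from 4 Control and 4 Mc1r LKO male mice, and both groups had eaten a Western diet for 12 weeks. Mc1r LKO mice carried floxed Mc1r alleles (Mc1r fl/fl) and a Cre recombinase driven by the albumin promoter (Alb Cre/+), and the controls were Mc1r fl/fl mice of the same age, 8 weeks when the diet began. The albumin promoter is active in hepatocytes, so that other cells of the liver keep Mc1r, the melanocortin 1 receptor. Mc1r itself had 0 counts in all 8 livers and therefore could not check the genotypes. Mice are called here by the numbers in their labels, 154, 159, 181 and 193 for the controls and 141, 156, 157 and 182 for Mc1r LKO. Total counts were between 10773151 in mouse 159 and 24763375 in mouse 157, and the limit that a count of 0 allows, 3 counts, corresponded to between 0.121 and 0.278 CPM, the counts scaled to a common library size. Hepatocyte markers were abundant in every liver, summing to between 75346 and 95784 CPM. Mouse 182 stood apart, with the lowest summed level of the Kupffer cell, sinusoidal endothelial, stellate cell, cholangiocyte, T and NK cell, B cell and adipocyte markers of the 8 mice and the highest of the hepatocyte markers.

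A serpin works as a bait. An exposed reactive centre loop is cut by the target protease, and the inhibitor then snaps into a new shape that traps the enzyme, so that each molecule is used up once. Hepatocytes secrete most of the serpins of blood plasma, which hold neutrophil elastase, the clotting proteases, plasmin and the proteases of complement in check. Most clade B serpins stay inside cells, and some family members do not inhibit proteases but carry hormones or assist the folding of other proteins.

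Most members stood in tandem arrays in the GRCm38 coordinates of the tables. On chromosome 12, chr12:103614786-104414329 held 27 members, which are all of clade A except Serpina7 on chromosome X. Clade B formed an array of 12 members at chr1:106861173-107610484 and another of 16 at chr13:32842092-34002794, and Serpinf1 and Serpinf2 were neighbours at chr11:75409769-75439591. The 5 alpha-1-antitrypsin genes, Serpina1a to Serpina1e, were close copies, with 96.3% to 98.6% identical coding sequence over their 10 pairs. Coding sequences of other members were not compared. They differed more in the stretch that encodes the reactive centre loop than over the whole coding sequence. This stretch is 78 coding bases (positions 1087 to 1164) of the GENCODE M21 transcripts on GRCm38. It is shown because the copies are less alike there, although they also differ elsewhere in the coding sequence. Capitals mark the 18 bases that differ among the 5.
Serpina1a: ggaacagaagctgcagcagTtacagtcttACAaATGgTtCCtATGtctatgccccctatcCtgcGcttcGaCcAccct
Serpina1b: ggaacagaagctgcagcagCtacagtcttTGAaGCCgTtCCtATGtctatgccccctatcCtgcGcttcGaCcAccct
Serpina1c: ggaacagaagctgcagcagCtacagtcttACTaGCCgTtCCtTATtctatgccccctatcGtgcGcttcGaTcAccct
Serpina1d: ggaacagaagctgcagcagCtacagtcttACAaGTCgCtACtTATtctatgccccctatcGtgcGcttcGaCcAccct
Serpina1e: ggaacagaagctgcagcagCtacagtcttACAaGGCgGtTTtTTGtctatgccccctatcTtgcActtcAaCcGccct
Within this stretch the pairs were 84.6% to 93.6% identical, and Serpina1e differed from the other copies at 10 to 12 bases. Serpina1c and Serpina1d were the closest pair, differing at 5 bases.

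Fragments that align equally well to several genes were not counted, so the shared sequence limits the level each gene can show. Of the 100-base windows along its transcripts, Serpina1c had 69.3% in common with another gene, Serpina1a 42.8%, Serpina1d 29.3%, Serpina1b 14.8% and Serpina1e 14.4%. Windows of 50 bases raised these shares, to 79.3% for Serpina1c, and windows of 150 bases lowered them, to 59.7%. In the Serpina3 group, which are the mouse relatives of human alpha-1-antichymotrypsin, the shares of 100-base windows were smaller, 6.09% for Serpina3m, 4.85% for Serpina3k, 3.49% for Serpina3g, 3.40% for Serpina3f and 0.204% for Serpina3n. Overlapping genes of the same strand also take fragments out of the counts. Such genes covered 55.6% of the exon bases of Serpina3g and 40.8% of those of Serpina11, by far the larger shared part for Serpina3g. Serpinc1 and Serpinb6a had 32.2% and 19.9% of their 100-base windows in transcripts of genes on the opposite strand, such as Zbtb37 and Nqo2, and shared no exon base with a gene of their own strand. Counting by strand keeps these apart. How many fragments were lost in these ways was not tested.

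**Figure D1:**
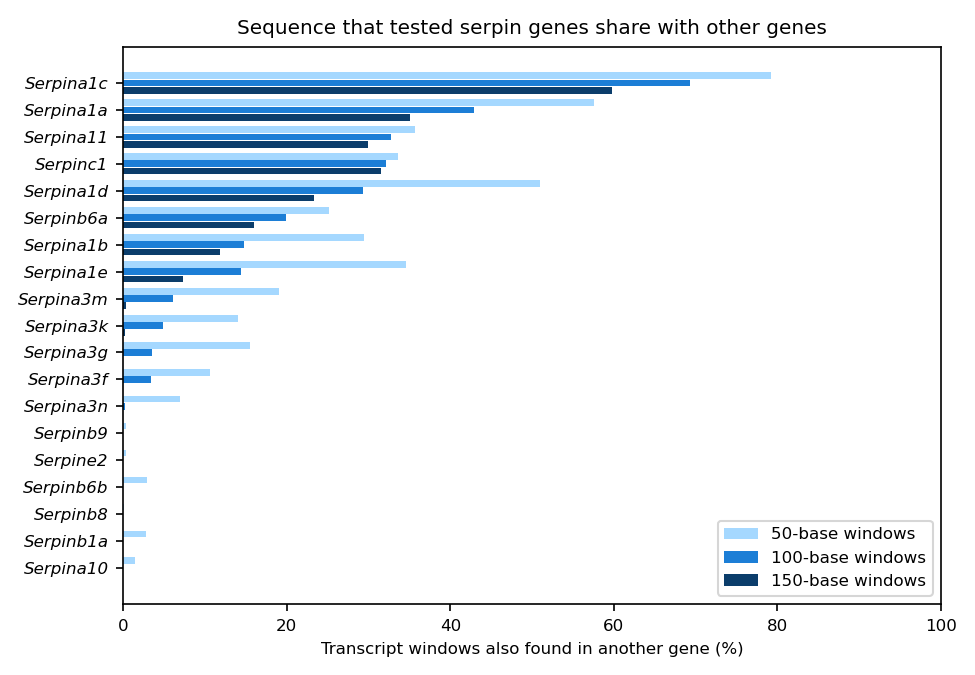
Bars give, for the 19 tested serpin genes with any shared 50-base window, the percentage of transcript windows (horizontal axis) found in another gene, for windows of 50, 100 and 150 bases. Serpina1c shares most, from 79.3% to 59.7%, and the bars of Serpinc1 and Serpinb6a stand for genes on the opposite strand.

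Of the 67 members, 28 passed the filter on low counts and were tested, 15 of clade A, 5 of clade B and 8 of the 11 in other clades. The other 39 had too few counts, and 22 of those had 0 counts in every liver, 17 of them in clade B. All members together took between 1.36% and 1.90% of the counts of the control mice. The share was 1.46% to 1.61% in Mc1r LKO mice 141, 156 and 157, within the control range, and 2.63% in mouse 182, above every other mouse.

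Per length, the highest member was Serpina3k, a secreted inhibitor also called kallikrein-binding protein, with a mean of 2191 ± 681 CPM per kb of exon in controls (SD, n = 4) and 2390 ± 1577 in Mc1r LKO (SD, n = 4). It was followed in the controls by Serpina1b at 1336 ± 169 CPM per kb, Serpina1c at 1127 ± 253 and Serpina1d at 913 ± 184 (SD, n = 4). The levels of these 3 neighbours in the order were separated by less than the larger SD of each pair, and each of the 3 shares windows with the others. No level was corrected for shared windows, 69.3% of the 100-base windows for Serpina1c and 4.85% for Serpina3k. The order is therefore that of the counted fragments. Serpina1a at 447 ± 71.2 CPM per kb and Serping1, the C1 inhibitor of complement, at 283 ± 73.9 came next and were each separated from the gene above by more than their SD. Serpinf1 had 250 ± 8.57 CPM per kb, within 1 SD of Serping1. Serpinc1, Serpinf2, Serpina3n and Serpind1 lay between 206 ± 13.3 and 170 ± 20.7 CPM per kb, with neighbours separated by less than the larger SD of each pair. The place of Serpinc1 rests on its 8546 annotated exon bases, all transcripts joined. In CPM its control mean of 1763 exceeded the 1534 of Serpina1c, which has 1361 exon bases. Serpine2 was the lowest tested member per kb in controls, at 0.622 ± 0.107 CPM over 8287 exon bases, within 1 SD of Serpinb1a at 0.755 ± 0.337. In CPM Serpinb1a was the lowest in controls, with a mean of 1.74 against 5.15 for Serpine2.

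The comparison of the genotypes asked whether loss of MC1R in hepatocytes went with other levels of these inhibitors. None of the 28 serpin genes passed an adjusted p under 0.05, and the smallest adjusted p among them was 0.734 (edgeR's quasi-likelihood test). No gene of the 13400 tested did so either (0%). Where the limit was an unadjusted p under 0.05 together with a log2 fold change of 0.25 or more in size, 1 of 28 members was called (3.57%), Serpina3f, which was lower in Mc1r LKO, beside 5.31% of all genes tested. The same rule called 2.66% of all genes lower and 2.64% higher, and no member higher. With no limit on the fold change the member called was again Serpina3f alone, beside 6.72% of all genes. The fold change was positive in 17 members and negative in 11, with a median log2 fold change of 0.12 beside -0.01 over all genes. Without mouse 182 it was positive in 12 and negative in 16, and the median was -0.02. Without control mouse 159 it was positive in 23 and negative in 5.

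Serpin levels also varied between mice of the same genotype. The median within-genotype SD was 0.34 on the log2 CPM scale over the 28 members, and 0.23 over all genes tested. Mouse 182 had the highest level of 15 members and the lowest of 5, mouse 159 the highest of 6, and mouse 154 the lowest of 10. The levels of the 28 summed to between 13158 and 19632 CPM in controls, to between 14644 and 15773 CPM in Mc1r LKO mice 141, 156 and 157, and to 28827 CPM in mouse 182.

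**Figure D2:**
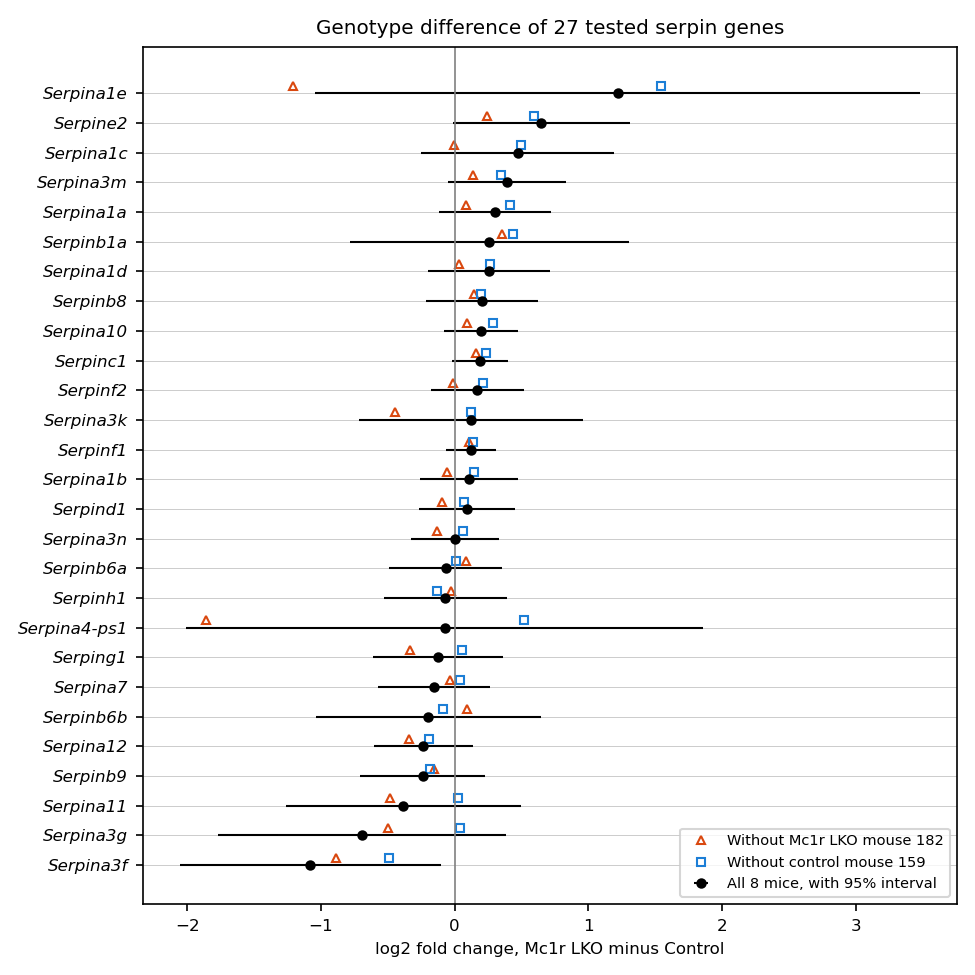
Points are log2 fold changes, Mc1r LKO minus Control, of 27 tested serpin genes with 95% intervals from edgeR, and open symbols are the same without Mc1r LKO mouse 182 or without control mouse 159. Of those drawn, only the interval of Serpina3f lies off 0, and Serpina1e and Serpina4-ps1 move furthest when mouse 182 is left out.

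Alpha-1-antitrypsin is the main plasma inhibitor of neutrophil elastase, and which of the mouse copies act on that enzyme was not tested here. Serpina1b had 2707, 3403, 3661 and 3139 CPM in control mice 154, 159, 181 and 193 and 3306, 3157, 2822 and 4644 CPM in Mc1r LKO mice 141, 156, 157 and 182. Serpina1c had 1095, 1594, 1932 and 1516 CPM in the controls and 1715, 1350, 1506 and 3948 CPM in Mc1r LKO. Serpina1d had 1046, 1267, 1634 and 1145 CPM against 1332, 1367, 1193 and 2193 CPM, and here as in the other copies mouse 182 was highest and the remaining Mc1r LKO mice lay within the control range. Serpina1a had 683, 985, 851 and 753 CPM in controls and 856, 933, 810.0 and 1437 CPM in Mc1r LKO, with mouse 182 again highest. The genotypes overlapped in all of them. The log2 fold changes were 0.11 ± 0.16 (SE, 95% interval -0.26 to 0.47) for Serpina1b, 0.47 ± 0.32 (95% interval -0.25 to 1.19) for Serpina1c, 0.26 ± 0.20 (95% interval -0.20 to 0.71) for Serpina1d and 0.30 ± 0.19 (95% interval -0.12 to 0.72) for Serpina1a in edgeR's quasi-likelihood fit, and without mouse 182 they were -0.06, -0.01, 0.03 and 0.09.

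Serpina1e, the copy with the most distinct loop sequence, varied most of the 28 tested members. It had 14.99, 98.8, 98.9 and 35.4 CPM in control mice 154, 159, 181 and 193 and 34.0, 26.3, 19.95 and 495 CPM in Mc1r LKO mice 141, 156, 157 and 182. Mouse 182 was 33.0-fold above mouse 154, and mice 159 and 181 were the next highest. Its within-genotype SD of 1.78 on the log2 CPM scale was at percentile 99.8 of all genes tested. The log2 fold change of 1.22 ± 1.02 (SE, 95% interval -1.04 to 3.48 in edgeR's quasi-likelihood fit) became -1.21 without mouse 182, and neither passed an unadjusted p under 0.05.

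Serpina4-ps1, the mouse pseudogene of kallistatin in the same array, had 3.35, 28.8, 17.0 and 7.26 CPM in controls and 4.36, 3.51, 3.60 and 40.7 CPM in Mc1r LKO. Mouse 182 was again highest, with mice 159 and 181 after it, as for Serpina1e. The within-genotype SD of 1.53 on the log2 CPM scale was at percentile 99.6. Its log2 fold change was -0.07 ± 0.87 (SE, 95% interval -2.01 to 1.86). Without mouse 182 it was -1.86, and Serpina4-ps1 was then the only member called.

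Stretches of 250 bases before a start site are shown for this group, because Serpina1a and Serpina1e differed in how much they varied between mice while their upstream sequences were nearly the same. They are RefSeq sequences of GRCm38.p6, on the minus strand, chr12:103863620-103863869 for Serpina1a and chr12:103956898-103957147 for Serpina1e. Capitals mark GTTAAT, a part of the palindromic site of HNF1, a transcription factor of hepatocytes.
Serpina1a: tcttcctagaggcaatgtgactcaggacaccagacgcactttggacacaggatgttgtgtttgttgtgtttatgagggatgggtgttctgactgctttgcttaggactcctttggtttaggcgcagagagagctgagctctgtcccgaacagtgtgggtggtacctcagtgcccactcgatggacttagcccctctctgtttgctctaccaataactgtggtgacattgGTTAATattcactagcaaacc
Serpina1e: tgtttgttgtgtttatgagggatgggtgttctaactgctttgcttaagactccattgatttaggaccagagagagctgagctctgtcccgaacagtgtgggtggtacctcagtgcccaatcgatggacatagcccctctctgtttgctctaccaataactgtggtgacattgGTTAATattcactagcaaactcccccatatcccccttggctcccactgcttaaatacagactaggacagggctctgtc
The match lay 21 bases before the RefSeq start in Serpina1a and 78 bases before it in Serpina1e. The letters next to the match are the same in both, so these distances depend on where each start is placed. Over 192 aligned bases the sequences were 95.8% identical, and over all pairs of the 5 copies the identity was 91.6% to 97.0%. GTTAAT, searched on both strands, stood in 6.43% of 32851 promoters and in 7 of the 21 tested members that have a promoter in the table, which were Serpina1a to Serpina1e, Serpina7 and Serpinb8. The share is counted per promoter and the members per gene with a match at any start, so these are unlike measures. A match describes letters in this window and not a bound site.

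Serpina3k and its relatives lie at the other end of the array. Serpina3k had 3056, 4418, 6412 and 4138 CPM in controls and 3542, 2958, 3396 and 9767 CPM in Mc1r LKO. Mouse 182 was 2.96-fold above the mean of the other Mc1r LKO mice, mice 141 and 157 lay in the lower part of the control range, and mouse 156 lay just below it. The log2 fold change was 0.13 ± 0.38 (SE, 95% interval -0.71 to 0.96), and without mouse 182 it was -0.45. Serpina3m ranged from 181 to 235 CPM in controls and from 206 to 398 CPM in Mc1r LKO, with mouse 182 highest (log2 fold change 0.39 ± 0.20, SE, 95% interval -0.05 to 0.83). Without that mouse the fold change was 0.14, and without mouse 156 it was 0.50 and was called. Serpina3n, a secreted inhibitor of granzyme B and cathepsin G that rises in the acute phase, had 326, 415, 331 and 422 CPM in controls and 344, 323, 352 and 480 CPM in Mc1r LKO. The genotypes overlapped and their means, 374 ± 52.0 and 375 ± 71.7 CPM (SD, n = 4), were close, with a 95% interval of the log2 fold change from -0.32 to 0.33.

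Serpina3f and Serpina3g stood far above the other mice in control mouse 159. Serpina3g, known as Spi2A, blocks cysteine cathepsins inside lymphocytes and macrophages, and Serpina3f is its close neighbour. Serpina3f had 5.16, 16.7, 5.42 and 5.54 CPM in control mice 154, 159, 181 and 193 and 2.56, 4.74, 5.49 and 2.35 CPM in Mc1r LKO mice 141, 156, 157 and 182. Mouse 159 was far above the other 7, mice 141 and 182 were lowest, and the genotypes overlapped because mouse 157 exceeded mice 154 and 181. The log2 fold change was -1.08 ± 0.44 (SE, 95% interval -2.06 to -0.10, adjusted p = 0.734 in edgeR's quasi-likelihood test), and a two-sided exact permutation test of the CPM of the 8 mice gave p = 0.0857. Without mouse 159 it was -0.49, without mouse 141 -0.93 and without mouse 182 -0.89, none of which passed an unadjusted p under 0.05.

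Serpina3g had 5.32, 21.3, 4.12 and 7.50 CPM in controls and 5.19, 5.85, 8.48 and 3.53 CPM in Mc1r LKO. Apart from mouse 159 the controls lay within the range of Mc1r LKO, and the log2 fold change of -0.69 ± 0.49 (SE, 95% interval -1.77 to 0.39) was 0.04 without that mouse. Mouse 159 also had the highest summed T and NK cell markers, 6.59 CPM against 1.41 to 3.19 CPM in the other controls and 0.698 to 2.40 CPM in Mc1r LKO, where mouse 182 was lowest. All 6 markers of that list were detected. Its summed Kupffer cell markers were likewise highest, 513 CPM against 144 to 349 CPM in the other 7 mice. The part of these cells in the Serpina3f and Serpina3g levels was not tested, and in bulk tissue fewer cells of a type and less RNA per cell cannot be told apart. Across the 8 mice, which share their libraries, the serpins most like Serpina3f on the log2 CPM scale were Serpina3g (Pearson r = 0.88) and Serpinb9 (r = 0.71). Serpina7 (r = 0.69), Serpinb6b (r = 0.65) and Serpinb6a (r = 0.48) followed. Over the 7 mice without mouse 159 these values were 0.59, 0.80, 0.25, 0.73 and 0.35, respectively.

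The 250 bases before the start sites of Serpina3f and Serpina3g are shown because these neighbours peaked in the same liver. They are RefSeq sequences of GRCm38.p6 on the plus strand, chr12:104214294-104214543 for the first of 2 starts of Serpina3f and chr12:104235897-104236146 for Serpina3g. Capitals mark TTCNNNGAA, the spacing bound by STAT factors, which is the same on both strands.
Serpina3f: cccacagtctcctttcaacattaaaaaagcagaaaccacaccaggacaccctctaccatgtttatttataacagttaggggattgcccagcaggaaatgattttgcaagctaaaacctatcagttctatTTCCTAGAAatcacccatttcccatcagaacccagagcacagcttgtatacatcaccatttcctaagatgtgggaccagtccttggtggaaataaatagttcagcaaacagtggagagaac
Serpina3g: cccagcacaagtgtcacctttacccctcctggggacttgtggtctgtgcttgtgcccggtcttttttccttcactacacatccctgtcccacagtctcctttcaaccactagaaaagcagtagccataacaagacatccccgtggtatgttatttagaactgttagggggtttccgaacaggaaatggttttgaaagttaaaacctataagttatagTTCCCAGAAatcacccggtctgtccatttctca
Serpina3f had TTCCTAGAA 121 bases before its RefSeq start and Serpina3g had TTCCCAGAA 33 bases before its own, and 147 aligned bases were 81.0% identical. In the annotation used for counting, Serpina3g starts further downstream, at chr12:104236245, so its distance depends on the start chosen. This motif stood in 7.02% of the 32851 promoters and in 4 of the 21 tested members with a promoter, the others being Serpina11 and Serpinb6a. Here too members were counted as genes with a match at any start, unlike the share over promoters.

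**Figure D3:**
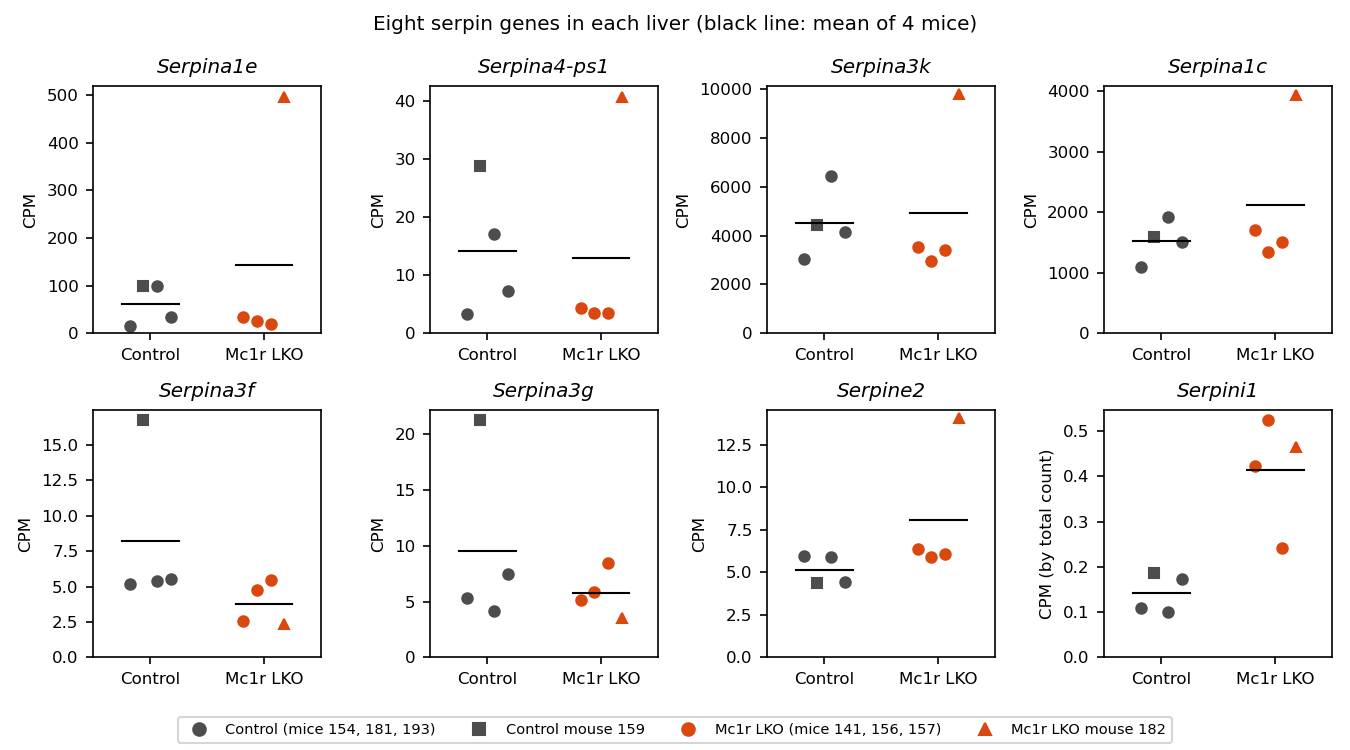
Panels show 8 serpin genes, with CPM (TMM-normalized, or by total count for Serpini1) on the vertical axis from 0, a point for each liver and a black line at the mean of 4 mice. Mouse 182 (triangle) is far above the rest for Serpina1e, Serpina4-ps1, Serpina3k, Serpina1c and Serpine2, and mouse 159 (square) for Serpina3f and Serpina3g, and of these 8 only Serpini1 has every Mc1r LKO liver above every control.

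None of the serpins of coagulation and fibrinolysis described next passed an adjusted p under 0.05 in edgeR's quasi-likelihood test. Their log2 fold changes lay between 0.09 for Serpind1 and 0.65 for Serpine2. The 95% interval of Serpine2 reached 1.31, so the lack of a pass does not show that levels were alike. Serpinc1, antithrombin, which blocks thrombin and factor Xa, had 1737, 1905, 1780 and 1629 CPM in controls and 2003, 2024, 1861 and 2145 CPM in Mc1r LKO. Mouse 159 alone kept the genotypes from separating, since only it exceeded mouse 157. The means were 1763 ± 114 and 2008 ± 116 CPM (SD, n = 4), and the log2 fold change of 0.19 ± 0.09 (SE, 95% interval -0.02 to 0.40) had an adjusted p of 0.771 in edgeR's quasi-likelihood test. Without mouse 159 it was 0.23, which passed an unadjusted p under 0.05 but not the fold limit. Serpind1, heparin cofactor II, had 329, 347, 431 and 385 CPM in controls and 340.1, 365, 342 and 543 CPM in Mc1r LKO (log2 fold change 0.09 ± 0.16, SE). Serpina10, the protein Z-dependent inhibitor of factor Xa, had 132, 164, 129 and 133 CPM against 147, 144, 153 and 196 CPM (log2 fold change 0.20 ± 0.12, SE). In both, mouse 182 was highest. For Serpind1 the remaining mice overlapped, and for Serpina10 every Mc1r LKO mouse was above every control but 159. Without mouse 159 the log2 fold change of Serpina10 was 0.29 and was called, and without mouse 182 it was 0.09.

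Serpinf2, alpha-2-antiplasmin, the plasma inhibitor of plasmin, had 416, 488, 474 and 437 CPM in controls and 424, 475, 444 and 700 CPM in Mc1r LKO. All Mc1r LKO mice but 182 lay in the control range, and the log2 fold change of 0.17 ± 0.16 (SE, 95% interval -0.17 to 0.52) was -0.01 without it. Serpine2, protease nexin-1, which acts on thrombin and urokinase at cell surfaces, had 5.96, 4.37, 5.89 and 4.40 CPM in controls and 6.36, 5.91, 6.06 and 14.1 CPM in Mc1r LKO. Here mouse 182 was highest, mouse 154 exceeded mouse 156, and the log2 fold change of 0.65 ± 0.30 (SE, 95% interval -0.01 to 1.31) was 0.25 without mouse 182. Mouse 182 also had the highest summed mesothelial markers, 5.16 CPM against 0.0928 to 0.959 CPM in the other 7, and their part in the Serpine2 level was not tested.

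Serpinf1, pigment epithelium-derived factor, which inhibits no protease and restrains vessel growth, was the single tested member whose genotypes did not overlap, beside 4.16% of all genes (2.63% with Mc1r LKO higher and 1.54% with it lower). It had 599, 601, 596 and 558 CPM in controls and 609, 681, 609 and 660 CPM in Mc1r LKO. In these TMM-normalized CPM every Mc1r LKO mouse was above every control, by a small margin. The means were 589 ± 20.2 and 640 ± 36.1 CPM (SD, n = 4), and the log2 fold change of 0.12 ± 0.08 (SE, 95% interval -0.07 to 0.31, adjusted p = 0.847 in edgeR's quasi-likelihood test) did not pass. With no normalization beyond the total count the log2 fold change was 0.08. The genotypes then overlapped, since mice 157 and 182 lay below control mouse 154. The TMM factors of mice 154 and 182 were 1.03 and 0.911.

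Other secreted members overlapped between the genotypes. Serping1, which blocks the first proteases of complement and plasma kallikrein, had 470, 877, 693 and 595 CPM in controls and 538, 497, 526 and 859 CPM in Mc1r LKO, with mice 159 and 182 highest in their groups. Serpina7, thyroxine-binding globulin, a hormone carrier, had 130.1, 211, 126 and 151 CPM against 165, 127, 158 and 105 CPM, and mouse 182 was the lowest of the 8. Serpinh1, the collagen chaperone HSP47, had 24.1, 24.2, 21.3 and 43.7 CPM against 31.2, 26.3, 25.9 and 25.1 CPM. Control mouse 193, the highest for Serpinh1, also had the highest summed stellate cell and fibroblast markers, 551 CPM against 210 to 454 CPM in the other mice, and their part in its Serpinh1 level was not tested. The log2 fold changes were -0.12 ± 0.22, -0.15 ± 0.19 and -0.07 ± 0.21 (SE), respectively. Serpina12, the adipokine vaspin, ranged from 95.5 to 135 CPM in controls and from 72.2 to 117 CPM in Mc1r LKO. Serpina11 ranged from 10.6 to 36.0 CPM and from 9.09 to 20.9 CPM.

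Of the intracellular clade B, 5 of 28 members passed the filter, all at low levels. Serpinb9, the inhibitor of granzyme B that protects cells from killer lymphocyte granules, had between 8.96 and 13.9 CPM in controls and between 6.98 and 12.2 CPM in Mc1r LKO. Serpinb6a ranged from 10.8 to 17.3 CPM and from 9.81 to 16.2 CPM, and Serpinb6b from 4.22 to 7.34 CPM and from 1.84 to 8.28 CPM. Mouse 182 was the lowest of the 8 for both Serpinb6 genes. Serpinb8, an inhibitor of furin, ranged from 4.09 to 6.20 CPM and from 4.61 to 6.34 CPM. Serpinb1a, an inhibitor of neutrophil elastase, ranged from 0.782 to 2.42 CPM in controls and from 0.830 to 3.64 CPM in Mc1r LKO. The log2 fold changes of these 5 lay between -0.24 and 0.26, and the genotypes overlapped in each.

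Among the 39 members that did not pass the filter, 17 had counts, and 6 of those had at most 3 in any mouse. The other 11 were compared by a two-sided exact permutation test, whose smallest p with 4 against 4 mice is 0.0286. Serpini1, neuroserpin, an inhibitor of tissue plasminogen activator best known from neurons, had 2, 2, 2 and 4 counts in control mice 154, 159, 181 and 193 and 6, 8, 6 and 10 counts in Mc1r LKO mice 141, 156, 157 and 182. Every Mc1r LKO mouse was above every control in CPM as well, with means of 0.414 ± 0.122 and 0.142 ± 0.0431 CPM (SD, n = 4). The ratio of the pooled counts, 30 against 10 and scaled by the totals, was 2.85 with a 95% interval of 1.36 to 6.54 that covers counting error only. The exact permutation p was 0.0286, the smallest possible, and 0.157 after Benjamini-Hochberg adjustment over the 11.

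Serpina5, the protein C inhibitor, had 4, 2, 4 and 12 counts in controls and 2, 1, 1 and 2 counts in Mc1r LKO. In CPM every Mc1r LKO mouse was below every control. Mice 159, 141 and 182 each had 2 counts, however, and mouse 159 had the lowest total count of the 8. The ratio of the pooled counts was 0.259 with a 95% counting interval of 0.0860 to 0.659, and 12 of the 22 control counts were from mouse 193. The exact permutation p of Serpina5 was also 0.0286 (0.157 adjusted over the 11). Genotypes that did not overlap were seen in 2.2% of the 4857 genes outside the filter with over 3 counts in a mouse, in 0.926% with Mc1r LKO higher. Without a filter, edgeR's quasi-likelihood test gave Serpini1 a log2 fold change of 1.56 (adjusted p = 0.732), which passed the unadjusted limit, and Serpina5 a value of -1.67 (adjusted p = 0.732), which did not. Serpina9, known from germinal centre B cells, had 22 counts in mouse 182 and 0 to 3 in the other 7. The summed B cell markers of mouse 182 were 0.791 CPM, the lowest of the 8, and their part in the Serpina9 counts was not tested. The largest count of the remaining 8 was 13, of Serpina3h in mouse 157, and their exact permutation p-values were between 0.257 and 1.

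Genes that act with the serpins were read from 5 lists in the same test. Of 23 tested proteases that serpins target, none was called at an unadjusted p under 0.05 with the fold limit, beside 5.31% of all genes, 14 had a positive fold change, and the median log2 fold change was 0.04. Without mouse 157, Casp1 of this list was called lower. Of 13 cofactors and receptors, Procr, the endothelial protein C receptor, was lower (log2 fold change -0.995 ± 0.43, SE, adjusted p = 0.735), although not without mouse 154, 159, 141, 157 or 182 in turn, and the median was 0.12. Procr was also not called with limma-voom or where at least 10 counts were needed in every mouse. Lrp1, a receptor that clears protease and serpin complexes, was called lower in its place without mouse 182, and beside Procr with upper quartile or no normalization. Without a filter Sdc4 of this list was called higher. None of 13 genes of secretory quality control, through which secreted serpins are folded, was called, and 10 had a positive fold change (median 0.07). Without mouse 182 only 1 of the 13 was positive, the median was -0.15, and Sel1l, a part of the machinery that removes misfolded proteins, was called lower. Of 22 acute phase genes, Il6ra, the receptor chain for interleukin-6, was higher (0.70 ± 0.20, SE) and Orm3, an orosomucoid, was lower (-0.65 ± 0.22, SE) though not without mouse 159. Apcs was called higher without mouse 159. The median of this list was -0.04 with 10 of 22 positive, 0.16 with 18 positive without mouse 159, and -0.13 with 5 positive without mouse 182. Of 14 glucocorticoid-induced genes, 9 were called higher, beside 2.64% of all genes, with a median of 0.79, among them Fkbp5 (1.09 ± 0.13, SE, adjusted p = 0.118) and Mt1 (2.41 ± 0.56, SE, adjusted p = 0.734). That list was chosen with this rise already known, so that nothing is read from its count, and no gene of any list passed an adjusted p under 0.05 in edgeR's quasi-likelihood test.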

How the data were processed

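Liver RNA of 8 mice, 4 of each genotype, was sequenced. The authors prepared stranded mRNA libraries, trimmed the reads with Trim Galore 0.6.6, aligned them with STAR 2.7.6a and counted them with featureCounts (Subread 2.0.1, strand option 2, Ensembl annotation of GRCm38 per the file headers), and they deposited whole-number counts per gene. By default that program counts neither multi-mapping fragments nor those on overlapping genes. Read length was not given in the sources used here.

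Genes were filtered with filterByExpr (minimum count 10, minimum total 15), scaled by TMM factors and compared by the quasi-likelihood functions (glmQLFit, glmQLFTest) of edgeR 4.0.16 under R 4.3.3. P-values were adjusted by Benjamini-Hochberg over the 13400 genes that passed. The filter, normalization and fold limit follow the study. It states its limit on p once as adjusted and once without that word, so both were used here, and its text does not name its test. CPM are TMM-normalized for tested genes and scaled by the total count for marker sums and genes outside the filter. Levels per kb divide by the exon length in the tables. Log2 CPM values used a prior count of 2. Symbols matched 55141 of 55487 identifiers. Each sample is a separate mouse, and the labels name no batch or litter. Total counts set the precision of low genes.

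Named with every mouse's value were members past an unadjusted p under 0.05, members whose genotypes did not overlap, the 10 highest per kb and those with textbook roles. Serpina1e, Serpina4-ps1, Serpina3g, Serpine2, Serpini1 and Serpina5 were added after their values were seen. A further tested member is counted but not reported here. The members and lists were chosen with earlier results of these data known. Alternatives were DESeq2 1.42.0, limma 3.58.1 (voom), a likelihood ratio test, a robust dispersion, other normalizations and filters, other fold limits, and each mouse left out in turn. Sequences and windows were read with Python 3.11.15 and Biopython 1.88, and 53 members had a promoter in the RefSeq table.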

Additional observations from a re-analysis of the deposited data

Results flagged for a closer look

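In groups of 4 mice, a liver was singled out where its gap to the nearest of the others was a larger part of the range of the group than Dixon's 95% critical value allows. This was met in 16 of 70 groups checked, and in 9 of the 16 the liver was mouse 182. Chance would give about 3.5 (about 1 in 20 groups) were the values normal and the groups separate checks. The genes share the same 8 libraries, however, and for Serpinb7 and Serpina3b a few counts stand against 0 in the other mice, so that number is only a rough guide.

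In the chromosome 12 array, mouse 182 was the far highest of the Mc1r LKO mice for Serpina1e (495 CPM, the others 19.95 to 34.0), Serpina4-ps1 (40.7 CPM, the others 3.51 to 4.36), Serpina1c (3948 CPM, the others 1350.5 to 1715), Serpina3k (9767 CPM, the others 2958 to 3542) and Serpina9 (1.02 CPM, the others at most 0.0404). Outside the array it was highest for Serpine2 (14.1 CPM), Serping1 (859 CPM) and Serpind1 (543 CPM), and lowest for Serpinb6a (9.81 CPM, the others 15.1 to 16.2).

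Control mouse 159 was highest for Serpina3f (16.7 CPM, the other controls 5.16 to 5.54) and Serpina10 (164 CPM, the others 129 to 133). Control mouse 193 was highest for Serpinh1 (43.7 CPM) and Serpina5 (0.518 CPM) and lowest for Serpinf1 (558 CPM, the others 596 to 601). Mc1r LKO mouse 157 was the only mouse of its group with counts of Serpinb7 (0.202 CPM, 5 counts) and Serpina3b (0.162 CPM, 4 counts).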

How the results depend on the processing

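The count of serpin genes past an adjusted p under 0.05 was 0 under every alternative and with each mouse left out. The count past the unadjusted limit, 1 with edgeR's quasi-likelihood test, was 2 with robust dispersion, 2 with upper quartile normalization, 2 with the likelihood ratio test and 2 with DESeq2, each time Serpina3f and Serpine2, 5 of 45 without a filter (among them Serpina3m and Serpini1) and 0 with limma-voom. Of all genes, between 5.07% and 5.55% were called where 2 members were, 4.73% without a filter and 5.20% with limma-voom. The count of members was between 1 and 4 with a mouse left out, 4 without mouse 156. Between 4.45% and 6.81% of all genes were called with a mouse left out, 4.82% without mouse 156. Without mouse 141 the count of members was 2, among them Serpine2 and not Serpina3f. The gene called was Serpina10 in place of Serpina3f without mouse 159, and Serpina4-ps1 without mouse 182. Of 476 fold changes under alternatives, 427 kept their direction and side of an unadjusted p of 0.05, with no limit on the fold. Another 17 passed that p newly, among them Serpinc1 with DESeq2 (0.19 on the log2 scale) and without mouse 159 (0.23), both short of the fold limit. The p was lost by 4, all of Serpina3f, and 28 changed sign. Apart from the mice left out, the sign changed for Serpina3k with limma-voom (-0.016 on the log2 scale) and for Serpina3n with upper quartile normalization (-0.0079), with no normalization (-0.052) and with limma-voom (-0.0077). The cause was not tested. With a mouse left out the sign changed within these log2 ranges. Serpina11 was -0.59 to 0.025. Serpina1b was -0.056 to 0.21. Serpina1c was -0.0055 to 0.64. Serpina1e was -1.21 to 1.60. Serpina3g was -0.95 to 0.037. Serpina3k was -0.45 to 0.35. Serpina3n was -0.13 to 0.076. Serpina4-ps1 was -1.86 to 0.52. Serpina7 was -0.24 to 0.040. Serpinb1a was -0.14 to 0.52. Serpinb6a was -0.20 to 0.084. Serpinb6b was -0.53 to 0.094. Serpind1 was -0.091 to 0.17. Serpinf2 was -0.014 to 0.26. Serping1 was -0.33 to 0.054. Serpinh1 was -0.18 to 0.23. DESeq2 values of NA stayed NA. No paired analysis was possible because the 2 genotypes share no replicate numbers. Depth limits the 39 members outside the filter.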
